A study of Mus musculus with 2 samples.

Results

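The 34 genes described here encode the molecular chaperones of the mouse cytosol and mitochondrial matrix: HSP70, HSP110, HSP90, HSP40 and small heat shock proteins, their co-chaperones, the mitochondrial chaperonin, the 8 subunits of the cytosolic chaperonin CCT, and the heat shock transcription factor Hsf1. They were taken by gene symbol from a deposited expression table of 15576 genes, and all 34 were found, each in a single row. The RNA came from BMDMs (bone marrow-derived macrophages), cells that grow out of the marrow of wild-type mice in culture. There was 1 library from BMDMs given 100 µM deoxycholic acid (DCA), a secondary bile acid made by gut bacteria, for 24 h, and 1 library from BMDMs without it (NC). The mouse strain, the culture medium and the vehicle of the NC cells are not stated in the labels used here, nor whether the cells were collected at the end of the 24 h. Each group is 1 library, so the variation between cultures is unknown and there is no test.

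Chaperones bind unfolded or partly folded proteins and release them after cycles of ATP binding and hydrolysis. HSP70 takes substrates from HSP40 (J-domain) proteins, nucleotide exchange factors of the BAG and HSP110 families reset it, and HSP90 receives a subset of its clients through adaptor co-chaperones. CCT is a double ring that folds actin and tubulin, and HSPD1 with HSPE1 does a like task in the mitochondrial matrix. When unfolded proteins accumulate, the factor HSF1 binds heat shock elements, which are inverted repeats of GAA units, and induces many of these genes. HSP70 and HSP90 are abundant in unstressed macrophages.

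The sequences shown first are the heat shock elements, since they mark a perfect HSF1 recognition sequence near a gene start, where a promoter window was at hand. RefSeq promoter windows of GRCm38.p6 (250 bases before the annotated start and 50 after it) were matched by symbol for 27 of the 34 genes. Hsf1, Hspa8, Hspa9, Hsp90aa1, Hsp90ab1, St13 and Cct4 had no matched window, so whether they carry an element was not examined. An element of 3 units, GAANNTTCNNGAA or its reverse complement TTCNNGAANNTTC, was found in a window of 5 of these 27 genes (18.5%), against 179 of 27025 genes in the whole promoter table (0.662%). An element of 2 units, GAANNTTC or TTCNNGAA, each of which reads the same on both strands and lies within every element of 3 units, was found for 15 of the 27 (55.6%) and for 17.0% of all genes. The 4 stretches below hold the elements of 3 units, in capitals. Positions are counted from the first base after the 250 upstream bases as +1, and each stretch lies in an annotated exon of at least 1 transcript. For the Hspe1 stretch this is an exon of Hspd1 and not of Hspe1.
Hspe1 (chr1:55088053-55088082, plus strand, from -95): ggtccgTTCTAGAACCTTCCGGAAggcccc
Dnajb6 (chr5:29735843-29735872, plus strand, from -55): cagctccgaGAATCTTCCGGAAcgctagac
Chordc1 (chr9:18292259-18292288, plus strand, from -8): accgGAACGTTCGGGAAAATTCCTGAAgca
Hsph1 (chr5:149636280-149636309, minus strand, from +7): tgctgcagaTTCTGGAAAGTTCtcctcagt

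In Hspe1 and Chordc1 the capitals cover overlapping elements. The Hspe1 element is also the element of Hspd1, where it is read on the opposite strand and has its first base at position -144: the genes of HSP10 and HSP60 lie head to head on chromosome 1. Hspa1a and Hspa1b have an element of 2 units at the same position, -104. A match is a description of these letters and does not show that HSF1 was bound.

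**Figure D1:**
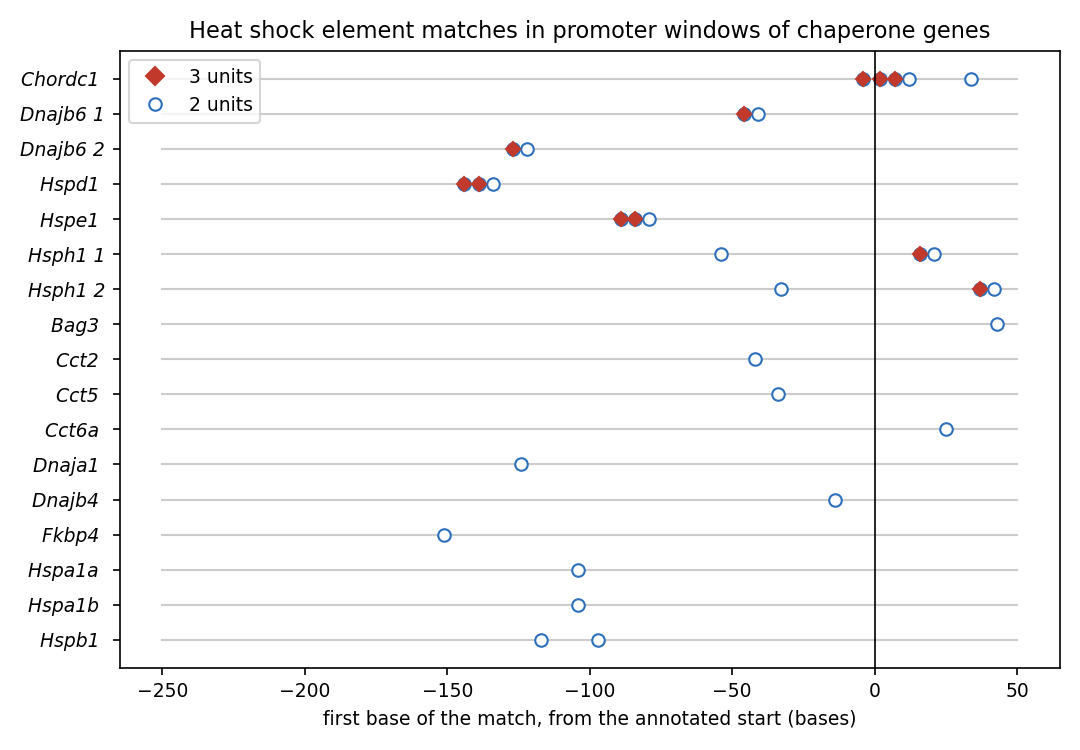
Positions of heat shock element matches (first base, in bases from the annotated start, on the x axis) in promoter windows of the chaperone genes that hold one; diamonds are elements of 3 units, open circles elements of 2 units, and genes with several starts have 1 row per start, numbered 1 and 2. Elements of 3 units are drawn for 5 genes, Chordc1, Dnajb6, Hspd1, Hspe1 and Hsph1, and the remaining 10 genes hold elements of 2 units.

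Across the set, the DCA and NC libraries were close. Of the 34 genes, 31 had a mean of at least 1 FPKM (reads per 1e6 reads and per kilobase) and were compared by size, and Hspa1a, Hspa1b and Hspb1 fell below that level. None of the 31 was 1.2-fold apart in FPKM + 1, where 2.83% of all 9656 genes at that level were, 2.11% higher in DCA and 0.715% lower. FPKM was higher in DCA for 16 of the 31 and lower for 15, beside 53.5% higher and 46.5% lower among all genes at that level. After scaling by the trimmed mean of M values the split was 12 higher and 19 lower, as genes next to equality (Hspa8, Hspa4, Hspa9 and Ptges3) changed side. That scaling lowers the DCA value of every gene, so this split cannot be read against the shares of all genes just given. The median difference in log2(FPKM + 1), DCA minus NC, was 2.98e-05 for the 31 genes and 0.0067 for all genes at that level. The FPKM ratios, DCA over NC, ran from 0.909 for Bag3 to 1.07 for Cct4. The SD of the log2(FPKM + 1) differences was 0.0516 over the 31 genes and 0.148 over all genes at that level. A robust SD, which outlying genes affect less, was 0.0515 over the 31 genes and 0.0801 over all genes at that level. Summed, the 34 genes held 424601 reads in DCA and 442972 in NC, which is 0.751% of the DCA reads and 0.748% of the NC reads.

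The depth sets how small a difference these libraries can show. The read total behind the FPKM, recovered from the values, was 56.6 M for the DCA library and 59.2 M for the NC library (M for 1e6). The median number of reads per gene was 8977 in DCA and 9192 in NC for the 31 chaperone genes. For all genes at that level it was 2775 and 2903. For each ratio an exact Clopper-Pearson 95% interval was taken from the reads. It covers counting error only, not the variation between cultures, and reads that are PCR copies make it too narrow. Of the 31 intervals, 6 lay above 1 and 6 below it, 38.7% in all. Over all genes at that level with whole reads, 25.6% lay above 1 and 20.0% below it, 45.7% in all, from fewer reads per gene. The lowest bound of any of the 31 intervals was 0.846, for Bag3, and the highest 1.102, for Dnajb1, so that every interval stayed inside the 1.2-fold limits of 0.833 and 1.2.

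**Figure D2:**
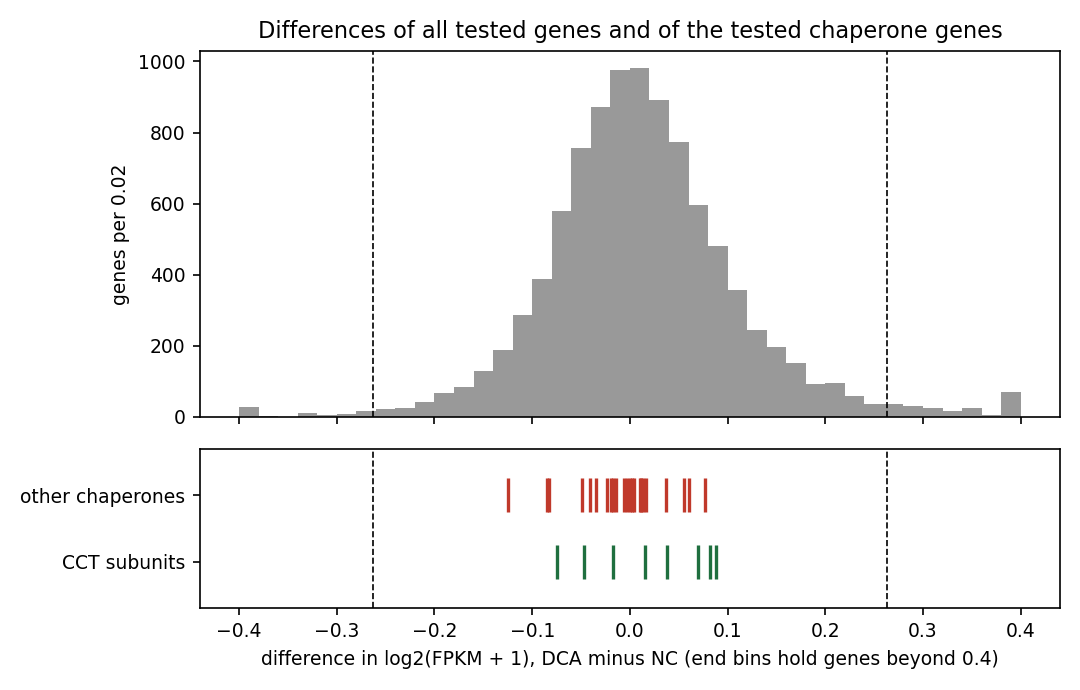
Top, number of genes (y axis) by difference in log2(FPKM + 1), DCA minus NC (x axis, bins of 0.02), for the 9656 genes at or above 1 FPKM on average; bottom, the same difference for each of the 31 chaperone genes at that level, drawn as ticks. Dashed lines mark 1.2-fold; all 31 ticks lie between them, and the CCT subunits spread to both sides of 0.

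The labelled cell type was checked against its markers. All 14 macrophage markers were detected, with Lyz2 at 9803 FPKM in DCA against 9669 in NC and the macrophage antigen gene Adgre1 at 61.6 and 65.7. RNA of other marrow cells was also present. Neutrophil markers were higher in DCA for 16 of 16, with summed FPKM of 4345 in DCA and 3680 in NC, and B cell markers for 9 of 10 measured, with sums of 183 in DCA and 147 in NC. The other lists were less uniform. Mast cell, basophil and eosinophil markers were higher in DCA for 7 of 8, with sums of 118 in DCA and 83.7 in NC, of which Prg2 alone held 97.0 and 65.9. Dendritic cell markers were higher for 4 of 7, and the intervals of 2 lay above 1. They summed to 35.1 in DCA and 28.4 in NC, and without Ccr7 to 22.9 and 21.1. T and NK cell markers were higher for 6 of 8, with sums of 4.52 in DCA and 3.10 in NC; among the CD3 genes, Cd3d had 14 reads in DCA and 0 in NC, Cd3g 17 and 0, and Cd3e 7 and 16. Macrophage markers were lower in DCA for 10 of 14, with a median ratio of 0.966, and 9 intervals lay below 1 and 1 above. Their summed FPKM was 10965 in DCA and 10871 in NC, and without Lyz2 1163 and 1202. The level of the chaperone genes in each of these cell types was not measured here, and the part of these marker differences in the chaperone values was not tested. In such bulk RNA, fewer cells of a type and less RNA per cell cannot be told apart.

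Hsf1, the transcription factor that induces the heat shock genes (ENSMUSG00000022556, GRCm38 chromosome 15, 76477422 to 76501913, plus strand), stood at 1.432 FPKM in DCA against 1.404 in NC. The ratio was 1.02 (95% interval 0.960 to 1.08), from 2094 and 2149 reads. The libraries did not differ in this gene beyond counting error. The factor is activated as a protein, by release from chaperones and by phosphorylation, so its transcript is not a measure of its activity.

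The stress-inducible HSP70 genes Hspa1a and Hspa1b, which are nearly silent in unstressed cells and are classic HSF1 targets, were almost off in both libraries. Hspa1a (chromosome 17, 34969190 to 34972156, minus strand) stood at 0.495 FPKM in DCA against 0.364 in NC, from 83 and 64 reads, with a ratio of 1.36 (0.968 to 1.91). Hspa1b (chromosome 17, 34956436 to 34959238, minus strand) stood at 0.435 FPKM in DCA against 0.325 in NC, from 69 and 54 reads, with a ratio of 1.34 (0.923 to 1.95). Each interval includes equality. The copies share 1716 windows of 50 bases exactly, and 66.3% of the windows of Hspa1a and 62.3% of those of Hspa1b recur in some other annotated gene, so the division of reads between them is uncertain and reads that fit both may be missing. Summed over both copies, there were 152 reads in DCA and 118 in NC, with a ratio of 1.35 with an interval of 1.05 to 1.73. The interval of the sum lies above 1, in genes that both stand below the level of 1 FPKM.

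Hspa8, the constitutive cytosolic HSP70 that also uncoats clathrin vesicles (chromosome 9, 40800984 to 40810087, plus strand), stood at 117.5 FPKM in DCA against 117.2 in NC. These values rest on 81758 and 85308 reads, and the ratio of 1.003 had an interval of 0.993 to 1.01. Of its 50-base windows, 74.8% recur in 13 other annotated genes, the closest being the processed pseudogene Gm15459, so its level is uncertain. The small heat shock protein gene Hspb1, whose product binds unfolding proteins without ATP, had 4 reads in DCA and 0 in NC. In FPKM this is 0.0386 in DCA, and the 0 in NC allows up to 0.0276 (3 reads). A difference in Hspb1 was not detectable at this depth.

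**Figure D3:**
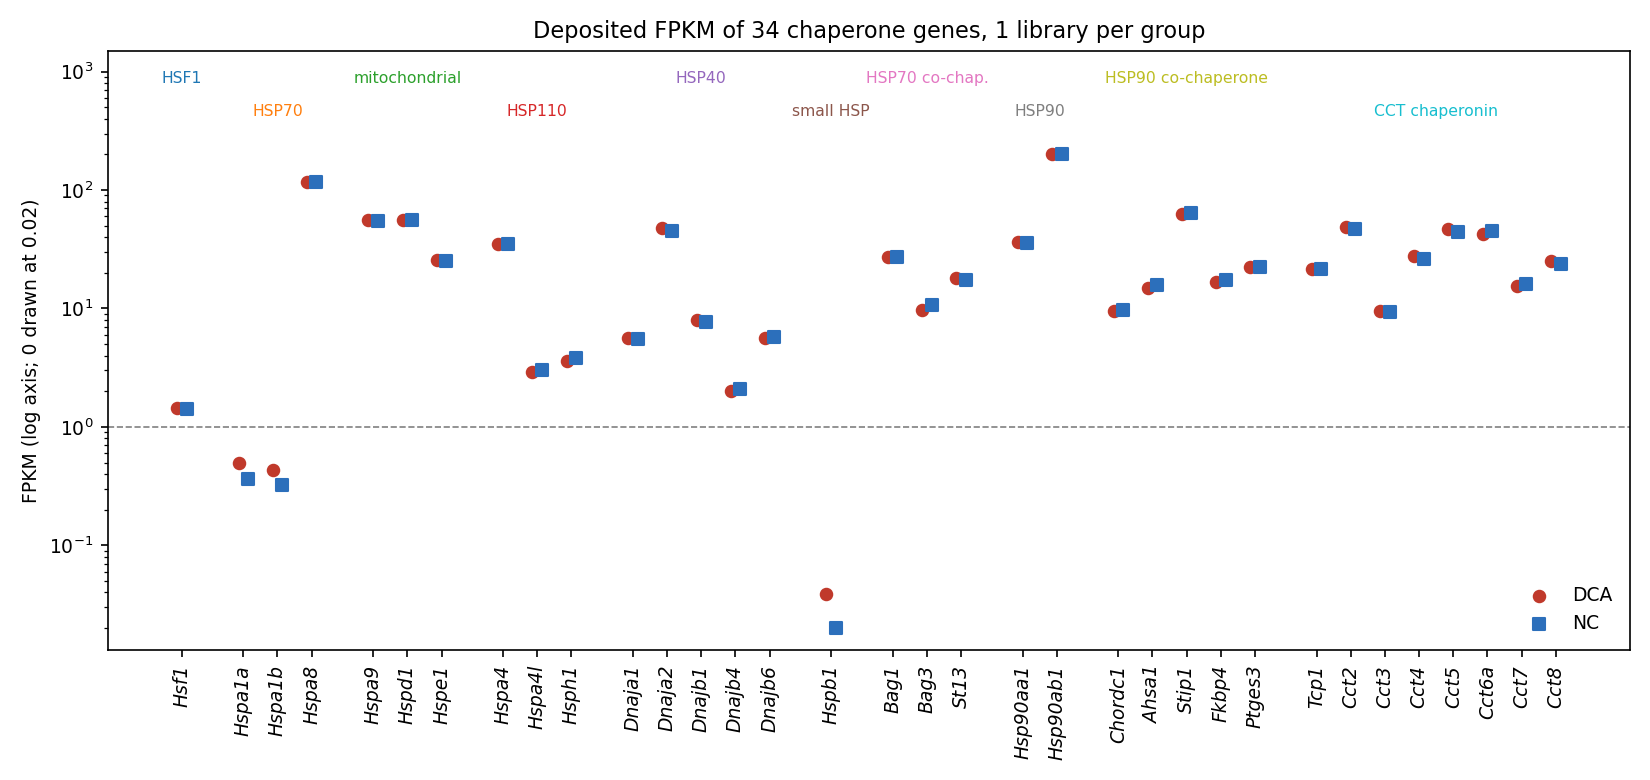
Deposited FPKM (y axis, log scale, 0 drawn at 0.02) of the 34 chaperone genes, grouped by class along the x axis; circles are the DCA library and squares the NC library, and the dashed line is the limit of 1 FPKM. The circle and square overlap or nearly so for every gene above the line, while Hspa1a, Hspa1b and Hspb1 lie below it. Levels of different genes are not comparable on this scale.

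The HSP40 proteins carry the J domain that stimulates ATP hydrolysis by HSP70, and 1 of the 5 genes had an interval that left out 1, beside 45.7% of all genes. Dnaja2 (chromosome 8, 85537633 to 85555344, minus strand) stood at 47.9 FPKM in DCA against 45.3 in NC, with a ratio of 1.06 (1.03 to 1.09). Dnajb1, the heat-inducible HSP40, had 8.03 and 7.69 FPKM in DCA and NC, with a ratio of 1.04 (0.989 to 1.102). Dnaja1, Dnajb4 and Dnajb6 had ratios of 1.01, 0.959 and 0.972, each with an interval that includes 1. Their FPKM in DCA were 5.60, 2.01 and 5.63, against 5.54, 2.10 and 5.79 in NC.

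The HSP110 proteins are distant HSP70 relatives that act as nucleotide exchange factors and holdases. Hsph1, the heat-inducible member (chromosome 5, 149614287 to 149636376, minus strand), stood at 3.57 FPKM in DCA against 3.85 in NC, from 4325 and 4878 reads. Its ratio of 0.928 (0.891 to 0.967) lay below 1. Hspa4 had 35.0 FPKM in DCA against 34.9 in NC, with a ratio of 1.001 (0.980 to 1.02), and Hspa4l had 2.93 and 2.996, with a ratio of 0.978 (0.931 to 1.03). Within each library, the reads of Hsph1 per read of Hspa4 were 0.263 in DCA and 0.283 in NC, a comparison that no scaling between libraries touches.

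Among the co-chaperones of HSP70, Bag3 and St13 lay on opposite sides. Bag3, an HSF1-induced adaptor that links HSP70 to small heat shock proteins and selective autophagy (chromosome 7, 128523616 to 128546981, plus strand), stood at 9.64 FPKM in DCA against 10.6 in NC. These rest on 1397 and 1608 reads, with a ratio of 0.909 (0.846 to 0.977), the lowest of the 31. Of all genes at that level, 83.4% had a smaller absolute difference than Bag3. St13, also known as HIP, which stabilises the ADP-bound form of HSP70, had 18.0 FPKM in DCA against 17.3 in NC, with a ratio of 1.05 (1.02 to 1.07). Bag1, a nucleotide exchange factor that couples HSP70 to the proteasome, had 27.4 FPKM in each library, with a ratio of 0.998 (0.967 to 1.03).

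An element of 3 units was found in 5 of the 27 genes with a promoter window. Among these 5, Hspe1 had a ratio of 1.03 (0.972 to 1.08), and Hspd1, Chordc1, Dnajb6 and Hsph1 had ratios of 0.988, 0.986, 0.972 and 0.928. The interval left out 1 for Hsph1 alone of these 5, beside 45.7% of all genes at that level.

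HSP90 keeps kinases, steroid receptors and other clients near their native state, and both cytosolic forms were within 1% of equality. Hsp90ab1, the constitutive form (chromosome 17, 45567775 to 45573271, minus strand), stood at 201.2 FPKM in DCA against 202.1 in NC, from 80219 and 84315 reads, with a ratio of 0.996 (0.986 to 1.005). Its interval moved to just below 1 under each of 3 other scalings of the libraries, to 0.980 to 0.9996 after scaling by the median ratio. Hsp90aa1, the inducible form (chromosome 12, 110690605 to 110702728, minus strand), stood at 36.1 FPKM in DCA against 35.8 in NC, with a ratio of 1.01 (0.988 to 1.03). The reads of Hsp90aa1 per read of Hsp90ab1 were 0.242 in DCA and 0.239 in NC. Of the 50-base windows of Hsp90aa1, 58.5% recur in other annotated genes, against 4.49% for Hsp90ab1. The sources do not state how reads that fit several genes were counted.

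Of the 5 co-chaperones of HSP90, 2 had an interval below 1 and none had one above, beside 20.0% below and 25.6% above among all genes. Ahsa1, the activator of the HSP90 ATPase, had 14.9 FPKM in DCA against 15.8 in NC, with a ratio of 0.941 (0.909 to 0.974). Fkbp4, a peptidyl-prolyl isomerase of steroid receptor complexes, had 16.8 FPKM in DCA against 17.5 in NC, with a ratio of 0.965 (0.932 to 0.999). Stip1, the HOP adaptor that joins HSP70 to HSP90, had 63.0 and 63.6 FPKM in DCA and NC, with a ratio of 0.990 (0.959 to 1.02). Chordc1, a CHORD-domain co-chaperone, had 9.57 and 9.70, with a ratio of 0.986 (0.951 to 1.02). Ptges3, the p23 co-chaperone that stabilises the closed form of HSP90, had 22.4 FPKM in both, with a ratio of 1.00002 (0.962 to 1.04).

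The mitochondrial chaperones help to import and fold proteins of the matrix, and all 3 intervals included 1, where 45.7% of those of all genes left it out. Hspa9, the mitochondrial HSP70 (mortalin), had 55.7 FPKM in DCA against 55.3 in NC, with a ratio of 1.01 (0.987 to 1.03). Hspd1, the HSP60 chaperonin (chromosome 1, 55077835 to 55088243, minus strand), stood at 55.5 FPKM in DCA against 56.2 in NC, with a ratio of 0.988 (0.963 to 1.01). Hspe1, its HSP10 lid (chromosome 1, 55088132 to 55091307, plus strand), had 25.8 and 25.1 FPKM, with a ratio of 1.03 (0.972 to 1.08). The reads of this divergent gene pair summed to 14503 in DCA and 15265 in NC, with a ratio of 0.994 (0.972 to 1.02). Of their 50-base windows, 44.8% recur in other annotated genes for either one, most of all in the processed pseudogene Hspd1-ps3 for Hspd1 and in the protein-coding AC117239.2 for Hspe1.

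The 8 CCT genes encode the subunits of a hetero-oligomeric ring in which every subunit has its own place, and their ratios spread to both sides of equality. Cct4 (chromosome 11, 22990519 to 23003780, plus strand) stood at 28.0 FPKM in DCA against 26.3 in NC, with a ratio of 1.07 (1.04 to 1.09). Cct5 had 47.1 FPKM in DCA against 44.5 in NC, with a ratio of 1.06 (1.03 to 1.09), and Cct8 had 25.01 and 23.8, with a ratio of 1.05 (1.03 to 1.08). Cct2 had 48.5 FPKM in DCA against 47.2 in NC, with a ratio of 1.03 (1.005 to 1.05). These 4 intervals lay above 1, where 25.6% of those of all genes at that level did. That of Cct2 included 1 under each of 3 other scalings, at 0.999 to 1.04 after scaling by the median ratio. The median number of reads in DCA was 14139 over the 8 CCT genes, against 2775 over all genes at that level.

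On the other side, Cct6a (chromosome 5, 129786998 to 129846371, plus strand) stood at 42.4 FPKM in DCA against 44.7 in NC, with a ratio of 0.948 (0.928 to 0.969). Cct7 had 15.4 FPKM in DCA against 15.9 in NC, with a ratio of 0.966 (0.940 to 0.993). Both intervals lay below 1, where 20.0% of those of all genes at that level did. The intervals of Tcp1 at 0.988 (0.967 to 1.01) and Cct3 at 1.01 (0.983 to 1.04) included 1. The most distant subunits were Cct4 and Cct6a: within each library there were 0.879 reads of Cct4 per read of Cct6a in DCA and 0.783 in NC. The pair was picked for being the extremes, so this value describes the spread and tests nothing. Summed over the 8 genes, CCT had 108750 reads in DCA and 112362 in NC, with a ratio of 1.01 (1.005 to 1.02). Under each of 3 other scalings this interval included 1, with lower bounds of 0.995, 0.999 and 0.997.

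Exons that overlap another gene touch Tcp1, Cct6a, Cct7 and Cct8, which include every subunit with a ratio below 1. The 4 subunits without such exons were all higher in DCA, with a median log2 difference of 0.0598 against 0.0265 for all 8, so the spread to both sides was seen only with the overlapping genes included. Cct6a shares 452 of its exonic bases with Psph on the other strand, a serine synthesis gene with 844 reads in DCA and 711 in NC, with a ratio of 1.24 (1.12 to 1.37). Summed over Cct6a and Psph the ratio was 0.959 (0.940 to 0.980), with most of the reads from Cct6a. Cct7 shares 214 bases with Pradc1, which had 390 and 365 reads, and their sum had a ratio of 0.971 (0.945 to 0.998). Cct8 shares 192 bases with Usp16, at 3574 and 3303 reads and a ratio of 1.132 (1.08 to 1.19), and their sum had a ratio of 1.067 (1.04 to 1.09). Tcp1 summed with Mrpl18, or with Acat3, had a ratio of 0.989. The sums do not show what the overlap does to a ratio, as reads in shared bases may have been left out of both genes. The sources do not state whether strand was used in the counting.

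**Figure D4:**
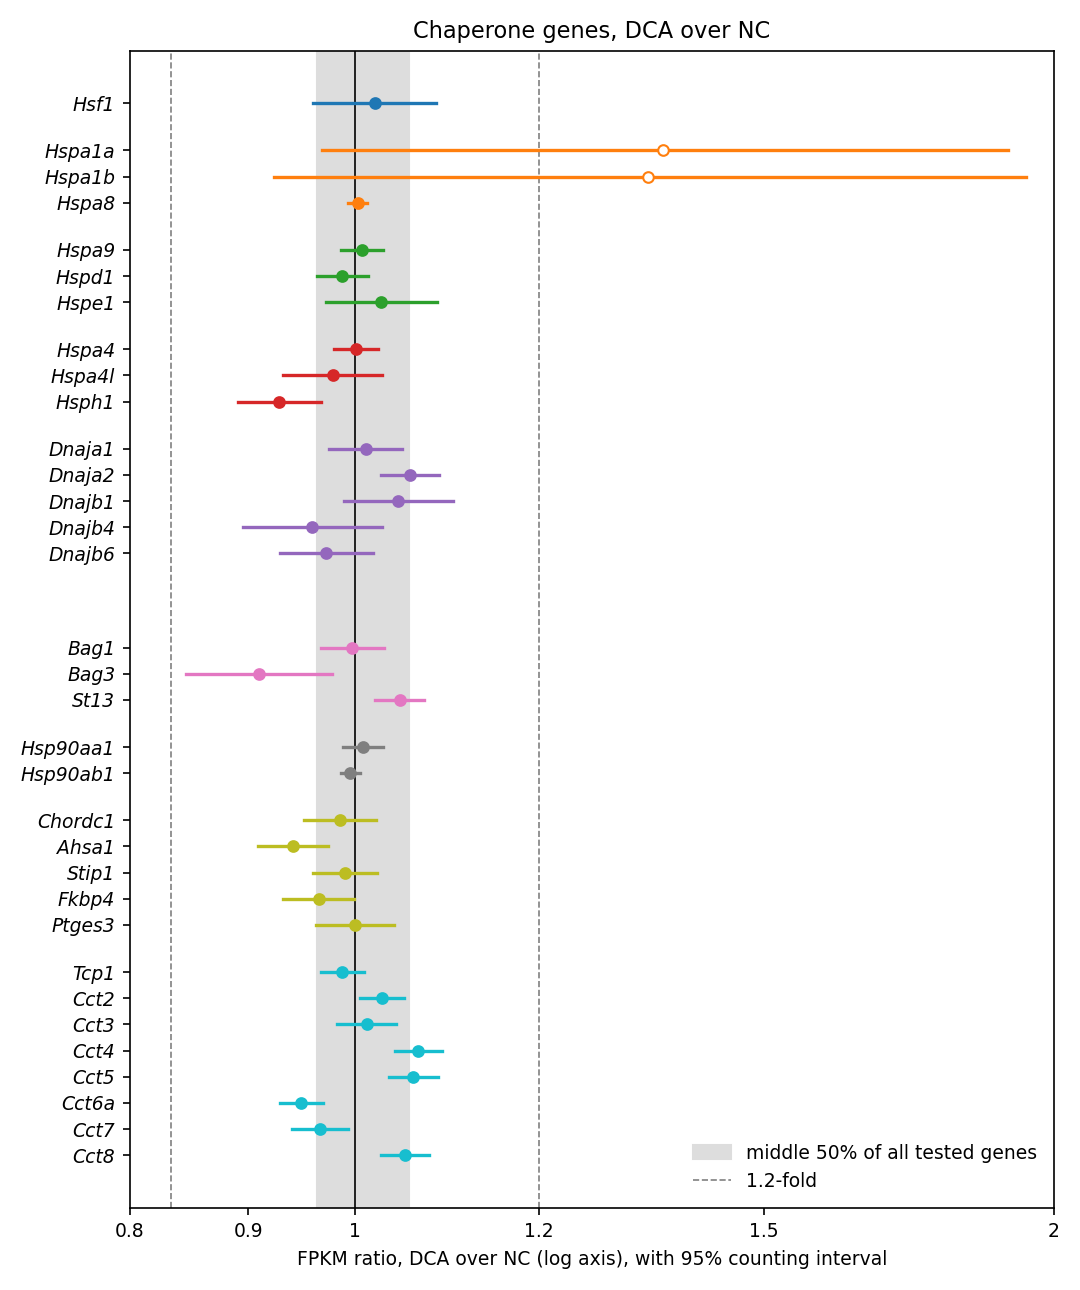
FPKM ratio, DCA over NC (x axis, log scale), of 33 chaperone genes with the 95% counting interval as a bar, coloured by class; open points are the genes below 1 FPKM, and Hspb1 is left out because it is at 0 in NC. The grey band, 0.963 to 1.06, is the interquartile range of all genes at or above 1 FPKM, and 23 of the 31 filled points fall in it; Bag3 is farthest to the left and Cct4 farthest to the right among the filled points.

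Levels of different genes were compared per kilobase of merged exons and 1e6 reads, since the length behind the deposited FPKM sums all transcripts of a gene. On this scale Hsp90ab1 was highest, at 473 in DCA and 475 in NC, and Hspa8 came next, at 336 and 335. With the longest coding transcript as the length this order turned, with Hspa8 at 604 in DCA and 602 in NC, and Hsp90ab1 at 563 and 565. With merged exons, Cct2 followed at 111 and 108, Bag1 at 102.4 and 102.7, and Hsp90aa1 at 87.2 and 86.5. At the low end, Hsf1 had 5.21 in DCA and 5.11 in NC, Hspa4l 4.65 and 4.76, and Dnajb4 3.17 and 3.31, above Hspa1a, Hspa1b and Hspb1. Hsf1 had 17.6 in DCA and 17.3 in NC with the coding length. With merged exons in DCA, Cct6a at 80.2 (exact Poisson 95% interval 79.0 to 81.5), Hspd1 at 80.1 (78.7 to 81.5) and Cct8 at 79.2 (77.9 to 80.5) could not be ordered beyond counting error. With the coding length they stood apart in DCA, at 118, 87.3 and 102 for Cct6a, Hspd1 and Cct8, so the order of levels depends on the length used. The shared windows given above bear on Hspa8, Hspd1 and Hsp90aa1. Other genes share windows as well: 51.6% of those of Hspb1, 42.8% of Dnajb6, 28.8% of Dnaja1, and 22.2% of Ptges3 and of Tcp1 recur in other annotated genes.

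Although CCT holds equal numbers of each subunit, the transcripts were not at equal levels. The level per kilobase of merged exons was highest for Cct2 and lowest for Cct3, at 111 and 24.9 in DCA, 4.44-fold apart. With the longest coding transcript as the length the range shrank to 2.07-fold, between Cct2 at 144 and Cct7 at 69.9 in DCA. The order of the middle subunits also moved with the library, with Cct5 above Cct6a in DCA and below it in NC for either length.

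**Figure D5:**
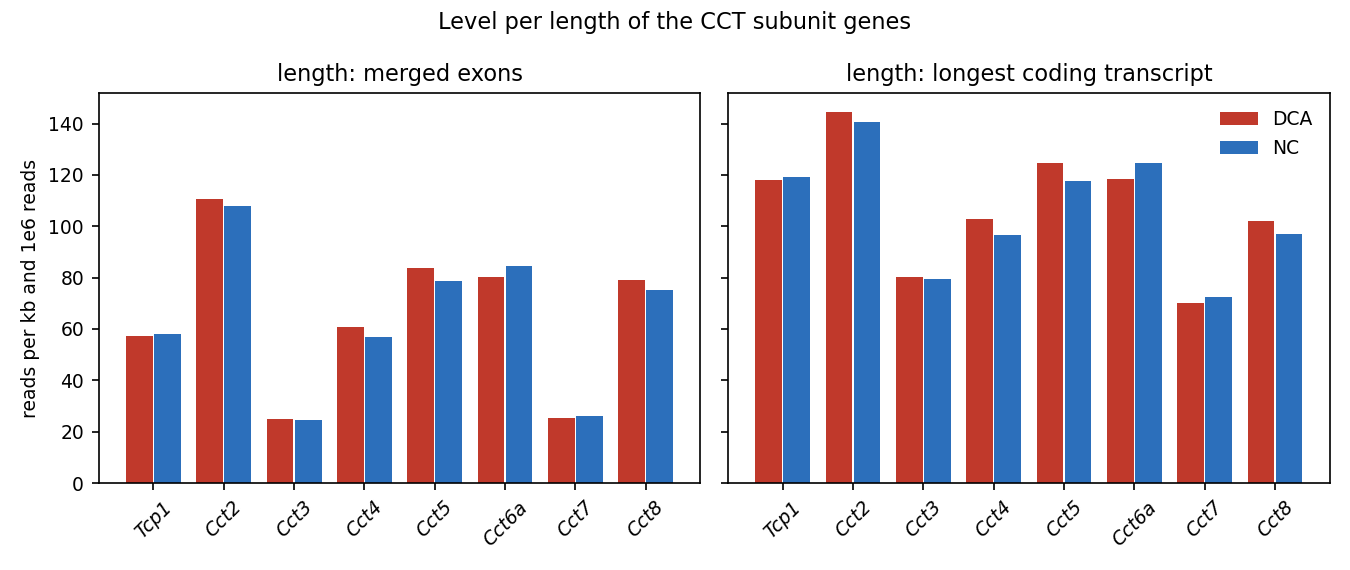
Level of the 8 CCT subunit genes in reads per kilobase and 1e6 reads (y axis, from 0), with DCA at the left and NC at the right of each pair of bars; the left panel divides by the length of all merged exons and the right panel by the longest protein-coding transcript, or for Cct6a, which has none annotated as such, its longest transcript. Cct2 is highest in both panels, and the lowest subunit is Cct3 at 24.9 in DCA in the left panel and Cct7 at 69.9 in the right.

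The rest of the chaperone network was read from lists chosen by function. They name 95 genes, of which 90 had a single row and 76 had a mean of at least 1 FPKM. Of the 76, 42 were higher and 34 lower in DCA, with a median ratio of 1.01. At least 1.2-fold apart in FPKM + 1 were 2.83% of all genes at that level and 1 of the 76. That gene was Pfdn4, a prefoldin subunit, with 1.44 FPKM in DCA against 2.25 in NC, from 416 and 679 reads, with a ratio of 0.641 (0.566 to 0.725). Its exons share 639 of 2520 bases with an antisense transcript that has no value here, so its reads are uncertain.

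Prefoldin, which hands actin and tubulin to CCT, and other CCT partners were higher in DCA in 8 of 10 genes, with a median ratio of 1.04 beside 1.02 for the 8 CCT subunits and 1.01 for all genes at that level. Among all genes at that level 53.5% were higher and 46.5% lower, with 25.6% of intervals above 1 and 20.0% below, the background for each list here. The intervals of 4 of these 10 lay above 1 and those of Pfdn4 and Pdcl below it. Of the mitochondrial proteases and chaperones, 7 of 10 were lower in DCA (median 0.979), with 4 intervals below 1 and 1 above. The other HSP90 co-chaperones were higher in DCA for 10 of 15 genes (median 1.01), with 2 intervals above 1 and 1 below. The other J-domain proteins were higher for 12 of 25 genes (median 0.997), with 4 intervals above and 4 below. Nucleotide exchange factors and other HSP70 partners were higher for 6 of 9 genes (median 1.03), with 3 intervals above 1 and none below. The remaining lists hold few genes at that level: 1 of 2 other HSP70 relatives was higher in DCA, 0 of 1 small heat shock gene, and 2 of 4 genes of HSF factors and stress ubiquitin.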

How the data were processed

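RNA sequencing of 1 DCA library and 1 NC library was used, grouped by their labels, with the columns of the table matched to them by name. The authors deposited FPKM per gene, with Ensembl identifiers and symbols. The submitters' processing notes name STAR 2.5.0c, Picard 1.126, bedtools 2.17.0, HTSeq 0.6.0, DESeq2 3.0 and the build GRCm38, with no role or order. Gene length, strand setting and filters are not stated there. With the summed length of all transcripts of a gene in GENCODE vM21 as its length, FPKM gave whole read numbers (tolerance 0.05) in DCA and NC for 96.4% of genes under 5000 reads and for 31 of the 34 chaperone genes. The reads of Hspa4l, Bag1 and Cct6a are approximate, and so are their intervals.

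Libraries were compared by log2(FPKM + 1) in DCA less that in NC, a scale that shrinks the change of low genes. Genes averaging at least 1 FPKM were compared. Ratios are FPKM ratios with exact Clopper-Pearson 95% intervals on the reads, computed with Python 3.11.15 and scipy 1.17.1. The recovery of reads, limits and intervals were tested on simulated data. All 34 genes were named, and of the other lists the genes 1.2-fold apart in FPKM + 1. List genes 1.2-fold apart by FPKM ratio alone were not named. The Pdcl interval, Psph, Pradc1, Usp16, Mrpl18, Acat3 and the markers given were also named. These were chosen after their values were seen. Hspa14 was not used, as its symbol had 2 rows. The members and lists were chosen with earlier results of these data known. Other pseudocounts, filters, scalings and lengths were tried.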

Additional observations from a re-analysis of the deposited data

How the results depend on the processing

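No paired analysis was possible because each group has 1 library, and leaving out a library would leave no comparison. The shares of all genes given above hold for the main setting only. The counts under other settings below therefore have no background beside them. The median difference of the 31 chaperone genes stayed within 0.0115 of 0 in log2 under every pseudocount, filter and scaling tried and without genes with overlapping exons. It was negative under the 3 scalings, at -0.0115, -0.00796 and -0.0106 for FPKM rescaled to sum to 1e6, the median ratio and the trimmed mean of M values. Under these, 5, 3 and 4 of the 31 genes next to equality changed side. Each scaling left 5 intervals above 1 and 7 below. The median over all genes compared was also negative, at -0.00365 with FPKM rescaled to sum to 1e6 and -0.000143 with the median ratio. No chaperone gene passed 1.2-fold except that FPKM rescaled to 1e6 brought Hspa1a and Hspa1b past the filter, and gave 2 genes higher. Without genes with overlapping exons, 9 of 21 chaperone genes were lower and 3 intervals lay below 1. Of the CCT subunits 4 of 4 were then higher and 0 lower, against 5 and 3 of 8 with all genes, and their median difference was 0.0598 against 0.0265. Of the wider chaperone lists, 1 gene was 1.2-fold higher and 2 lower with pseudocount 0.1, and 2 were higher and 2 lower with FPKM rescaled to 1e6. None was 1.2-fold lower with pseudocount 5 (0 of 76), with a mean FPKM of at least 5 (0 of 48) or without overlapping exons (0 of 49). Of the 48, 26 were higher and 22 lower. Of the 49, 32 were higher and 17 lower, with a median difference of 0.0239 against 0.00996 for all 76, and the cause was not tested. The interval of the summed CCT reads included 1 under the 3 scalings. The range of CCT levels in DCA, 4.44-fold with merged exons, was 3.29-fold with the longest transcript and 2.07-fold with the longest coding one, a length added after seeing the data. The counting interval of the chaperone genes had a median half-width of 2.91% of the ratio, so differences smaller than that were not detectable at this depth for a typical gene.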
